A study of Homo sapiens with 6 samples.

Results

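The genes described here encode the machinery that moves proteins between the endoplasmic reticulum (ER) and the Golgi: vesicle coats, the GTPases that build them, cargo receptors, tethers and SNAREs. They form a list of 50 genes, written by name with no rule on measured values, although earlier results of these data were known when it was drawn up. A gene entered when a probe on the array carried a RefSeq accession that maps to its symbol. Of the 50 genes, 49 had such a probe, with 67 probes in all out of 34127 on the array, and only TMED7 had none under its symbol. All 67 probes were well above background on all 6 arrays, so no member was lost to a filter on dim signal. Expression was measured in CAL-27, an established human tongue squamous carcinoma line, on 1-colour Agilent arrays. One group carried an shRNA against XBP-1s, the spliced form of the transcription factor XBP1 (shXBP-1s, n = 3). The other carried a negative control (shCtrl, n = 3). Cells of both groups were CAL-27, and those with the shRNA against XBP-1s were made by stable transduction. The methods say in general terms that experiments were repeated independently. Whether a group was a clone or a pool of cells, and whether its arrays came from separate cultures, was not found stated for the arrays themselves, so the p-values measure the spread between these samples only, which may be technical.

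Proteins leave the ER in COPII vesicles. The GTPase SAR1 is switched on by PREB at exit sites organised by SEC16A and TFG, recruits the inner coat of SEC23 and SEC24, which selects cargo, and is then enclosed by an outer cage of SEC13 and SEC31. Escaped ER residents and cargo receptors return in COPI vesicles, whose coat is laid down by ARF GTPases after activation by GBF1. Tethers catch the incoming vesicle and SNAREs fuse it. The route matters most in cells that secrete heavily, and XBP1s is known as a driver of secretory capacity during the unfolded protein response.

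Every level below is a log2 signal after subtraction of the 75th percentile for that array, and every difference is shXBP-1s minus shCtrl on that scale. A gene passed where limma gave it an adjusted p (Benjamini-Hochberg, over 27624 tested probes) below 0.05, and it was represented by its brightest probe unless others are named. The targeted gene XBP1 read 1.88, 1.85 and 1.87 on the shCtrl arrays and -0.50, -0.54 and -0.52 on the shXBP-1s arrays, a difference of -2.39 (SE 0.04, adjusted p = 2.81e-07, limma), or 19.1% of the control signal. XBP1 had 1 probe, and whether it separates the spliced from the unspliced form was not tested. By scan time the arrays fell on 2 slides, with shCtrl replicates 2 and 3 on one and shCtrl replicate 1 and all shXBP-1s arrays on the other, so a value within a slide rests on shCtrl replicate 1 alone. That percentile was an intensity of 687 to 761 for shCtrl and 792 to 983 for shXBP-1s. All 10 squamous epithelial markers on a fixed list were well above background, and 8 rose in shXBP-1s, by 0.16 to 4.28, with a summed level of 6.94 to 7.02 in shCtrl and 7.34 to 7.56 in shXBP-1s. Of 4 fibroblast markers tested, 2 fell and 1 rose (summed level -0.08 to 0.05 against -0.72 to -0.67), while COL3A1 and THY1 were not well above background on any array. Among 5 immune markers, 2 fell and 1 rose (2.20 to 2.69 against 1.76 to 1.86), and none of 4 endothelial markers passed (-2.22 to -1.86 against -1.95 to -1.85). The part of these differences in the results below was not tested. In such bulk samples a smaller share of cells with a transcript and less of it per cell cannot be told apart.

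The ER-Golgi genes changed in both directions in shXBP-1s, by less than 2-fold each. Of the 49 genes measured, 16 fell, 7 rose and 26 did not pass, with 32.7% lower and 14.3% higher. Over all 16821 genes tested by their brightest probe, 27.5% were lower and 18.9% higher, so both shares of the members were near the background. None of the 49 changed by 2-fold in either direction, where 2.88% of all genes passed at 2-fold or more lower and 2.3% higher. Probe by probe, 23 of the 67 probes fell, 9 rose and 35 did not pass. Over all 27624 tested probes 6423 fell (23.3%) and 5093 rose (18.4%). Falls were thus a larger share of the member probes than of all probes and rises a smaller share, without a test of either. The extremes were COPA at -0.68 and SAR1B at 0.55, and the median was -0.07, beside -0.04 over all genes. A difference smaller than 0.5 in size was found for 45 of the 49 genes (91.8%) and for 78.1% of all genes tested. The 3 arrays of a group did not overlap the 3 of the other in 29 of the 49 genes, and the background share of genes without overlap was 56.5%. The count of calls was smaller under normexp correction, and most so without quantile normalization after it, for the members and for all probes. Which step of these settings moved the counts was not tested. With normexp correction 7 members fell and 6 rose, while 2448 of all probes fell and 2059 rose in place of 6423 and 5093. With normexp followed by quantile normalization 12 members fell and 9 rose, beside 5709 and 5476 of all probes.

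**Figure D1:**
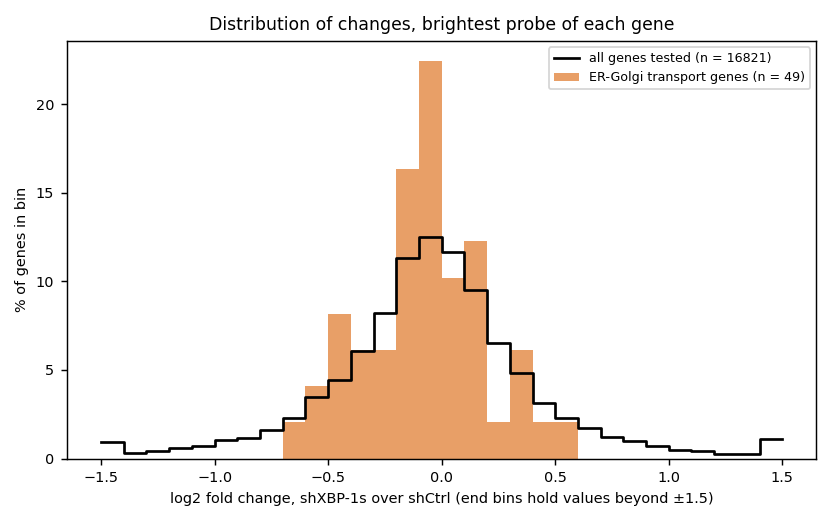
The plot shows the share of genes (y axis, % of genes) in bins of the log2 fold change of shXBP-1s over shCtrl (x axis), with bars for the 49 ER-Golgi transport genes and a line for all 16821 genes tested, each by its brightest probe. The bars lie between -0.68 and 0.55 and are centred near 0, while the line has counts in its end bins, which gather all genes beyond 1.5 on either side.

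**Figure D2:**
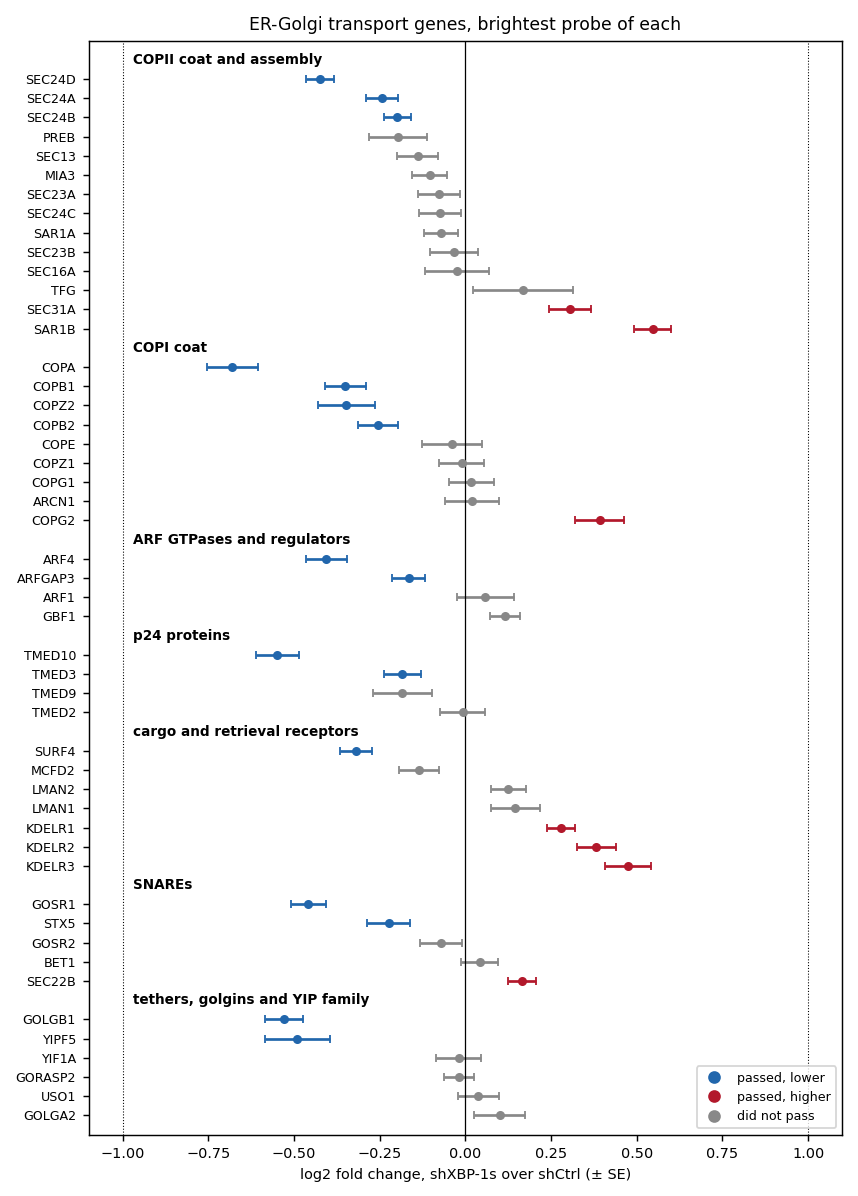
The plot gives the log2 fold change of shXBP-1s over shCtrl (x axis, with standard error bars) for the brightest probe of each of the 49 genes, grouped by role, with dotted lines at a 2-fold change. Blue marks the 16 genes that fell, red the 7 that rose and grey the 26 that did not pass, and no point reaches a dotted line.

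XBP1s binds the UPR element, whose core is TGACGTGG, and many promoters of secretory genes also hold the shorter CCACGT, part of that core read on the opposite strand. RefSeq promoter windows (GRCh38.p14, 250 bases before to 50 after each start) were at hand for 44 of the 49 genes, and both strands were searched. The 5 genes without a window under their symbol were SEC24D, ARF4, TMED9, KDELR2 and USO1. They were not searched, so whether they hold the element is not known. TGACGTGG occurred in 10 of the 44 genes (22.7%), beside 0.927% of all 27305 genes with a window, or 0.729% of all windows. The 10 genes were SEC23A, SEC24A, SEC16A, COPA, COPB1, COPB2, ARF1, GBF1, KDELR3 and STX5. CCACGT, which every one of those also holds, occurred in 25 of the 44 (56.8%) and in 11.6% of all genes. All genes include noncoding and silent ones, so these shares are not matched for expression. By the call of the brightest probe, of the 14 lower genes with a window 5 held TGACGTGG, of the 6 higher 1 and of the 24 that did not pass 4. Longer elements, CCAAT and CCACG 9 bases apart and ATTGG and CCACG 1 base apart, were found in none of the 44 genes and in 0.0916% and 0.0696% of all genes. A match is a run of letters, not a shown binding site. ARF1, which did not pass, and STX5, which fell, hold the element 16 bases before the start and are not printed. Shown here are stretches of 4 promoters, each of 52 bases that lie before the start. They are on the gene's own strand, 5′ to 3′, with the element in capitals (CCACGTCA is TGACGTGG on the other strand). They are SEC24A (chr5:134648584-134648635, plus strand, probes of both directions), COPB1 (chr11:14499830-14499881, minus strand, fell), COPB2 (chr3:139389814-139389865, minus strand, fell) and KDELR3 (chr22:38468028-38468079, plus strand, rose), all in GRCh38.p14.
SEC24A: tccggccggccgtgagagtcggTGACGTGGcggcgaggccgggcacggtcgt
COPB1: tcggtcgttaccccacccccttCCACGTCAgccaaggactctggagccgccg
COPB2: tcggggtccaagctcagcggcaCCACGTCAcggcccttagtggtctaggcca
KDELR3: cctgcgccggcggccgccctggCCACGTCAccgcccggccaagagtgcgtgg
The first capital lies 179 bases before the start in SEC24A, 48 in COPB1 and 46 in KDELR3. In COPB2 it lies 163 or 196 bases before, depending on which of its annotated starts is counted. COPB2 also holds a match nearer the start, which is not printed, and COPA has the element just after its start, at position 6.

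The counts by role are over 4 to 14 genes each and stand beside the same 27.5% lower and 18.9% higher of all genes, with no test of a role against the rest. Of the 14 COPII genes, 3 fell, 2 rose and 9 did not pass by their brightest probes. The falls were all in SEC24, the cargo-binding subunit. SEC24D read 0.57, 0.55 and 0.54 on the shCtrl arrays and 0.12, 0.11 and 0.14 on the shXBP-1s arrays, with no overlap and little spread within either group. Its difference of -0.42 (SE 0.04, adjusted p = 1.08e-04, limma) left 74.5% of the control signal and was -0.44 within the slide that holds both groups. SEC24B fell by 0.20, from between 1.38 and 1.41 to between 1.18 and 1.20, but gave -0.08 under normexp and -0.12 with quantile normalization after it, without passing either time. SEC24C (-0.07, adjusted p = 0.369, limma) did not pass. SEC24A, whose promoter element is shown above, had 3 probes that disagreed. Its brightest probe read 1.89, 1.88 and 1.87 in shCtrl and 1.59, 1.63 and 1.70 in shXBP-1s, a difference of -0.24. A second probe with the same accession (NM_021982) read -0.25, -0.12 and -0.09 in shCtrl and 0.59, 0.73 and 0.73 in shXBP-1s, a rise of 0.83 (adjusted p = 2.99e-05, limma). A dimmer probe for another transcript (NM_001252231) fell by 0.50, so 2 probes of the gene were lower and 1 higher, their mean difference was 0.03, and no direction can be given for SEC24A. Under normexp its brightest probe gave -0.04 and, with quantile normalization after it, -0.07, neither of which passed.

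The rises among COPII genes were in SAR1B and SEC31A. SAR1B, the GTPase paralog whose loss is known to impair export of large lipoprotein particles, read 0.65 on all 3 shCtrl arrays and 1.12, 1.18 and 1.29 on the shXBP-1s arrays. It rose by 0.55 (SE 0.05, adjusted p = 1.21e-04, limma), a 1.46-fold difference, the largest rise among the 49 brightest probes. SAR1A, the other paralog, did not pass by its brightest probe (2.67, 2.54 and 2.60 against 2.52, 2.54 and 2.53, a difference of -0.07). Its dimmer probe rose from 0.62, 0.77 and 0.71 to 1.13, 1.24 and 1.37, a difference of 0.55 (adjusted p = 4.65e-04, limma), so no direction can be given for SAR1A. SEC31A, the rod of the outer cage, read 1.97, 1.81 and 1.86 in shCtrl and 2.12, 2.16 and 2.27 in shXBP-1s, a rise of 0.30 (SE 0.06, adjusted p = 0.00453, limma). With the slide as a block its difference was 0.22 and did not pass (adjusted p = 0.0659, limma).

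The remaining COPII genes did not pass by their brightest probes. SEC23A and SEC23B, the GTPase-activating subunits, differed by -0.08 and -0.03, with overlapping groups. SEC13, the partner of SEC31A in the cage, gave -0.14, although its groups did not overlap. SEC16A (-0.02), TFG (0.17) and the SAR1 exchange factor PREB (-0.20) had overlapping groups, TFG with the widest spread of these (SD 0.17 in shCtrl and 0.29 in shXBP-1s). MIA3, also called TANGO1, is the receptor that fits collagen into COPII carriers. By its brightest probe it read 0.35, 0.50 and 0.45 in shCtrl and 0.30, 0.34 and 0.34 in shXBP-1s, a difference of -0.10 (adjusted p = 0.146, limma). Of its 3 dimmer probes, 1 fell from between -2.34 and -2.28 to between -3.28 and -3.15, a difference of -0.91 (adjusted p = 2.44e-05, limma), and the others gave -0.03 and -0.19. All 4 probes carry the same accession (NM_198551).

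In the COPI coat 4 of 9 genes fell, 1 rose and 4 did not pass. COPA, the alpha subunit that binds the retrieval signal of returning proteins, read -0.83, -0.72 and -0.82 on the shCtrl arrays and -1.61, -1.45 and -1.36 on the shXBP-1s arrays. This difference of -0.68 (SE 0.07, adjusted p = 1.93e-04, limma), to 62.4% of the control signal, was the largest of any brightest probe of the 49 genes. COPB1, the beta subunit, read 3.77, 3.87 and 3.87 against 3.42, 3.46 and 3.59 and fell by 0.35 (SE 0.06, adjusted p = 0.00195, limma). COPB2, the beta prime subunit, read 3.86, 3.95 and 3.98 against 3.60, 3.66 and 3.76, a difference of -0.25 (SE 0.06, adjusted p = 0.00895, limma). These 3 genes are the COPI genes with TGACGTGG in a promoter window. Every shXBP-1s array lay below every shCtrl array in each of them. With the slide as a block COPB2 gave -0.19 and did not pass, and neither COPB1 (-0.19) nor COPB2 (-0.12) passed under normexp correction. COPZ2, a zeta paralog, fell from between -2.77 and -2.59 to between -3.13 and -2.91, a difference of -0.35 (adjusted p = 0.0113, limma), and under normexp gave -0.67 without passing.

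COPG2, a gamma paralog, rose. It read -1.07, -1.12 and -1.09 in shCtrl and -0.83, -0.70 and -0.56 in shXBP-1s, a difference of 0.39 (SE 0.07, adjusted p = 0.0032, limma), which was 0.22 and did not pass under normexp. Its paralog COPG1 (0.018), the delta subunit ARCN1 (0.019), the epsilon subunit COPE (-0.04) and COPZ1 (-0.01) had overlapping groups, and the sign of each changed under at least 1 other setting. The dimmer probe of ARCN1 gave 0.16 and missed the threshold (adjusted p = 0.0576, limma).

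ARF4, an ARF GTPase of the early Golgi, was the clearest change among the ARF genes. It read 2.90, 2.87 and 2.72 on the shCtrl arrays and 2.39, 2.40 and 2.48 on the shXBP-1s arrays, a difference of -0.41 (SE 0.06, adjusted p = 9.84e-04, limma) to 75.5% of the control signal. ARFGAP3, which ends the ARF cycle on COPI vesicles, fell by 0.17, from between 2.38 and 2.46 to between 2.19 and 2.30, and lost its call under 8 of 18 other settings. ARF1, the main GTPase of COPI assembly, differed by 0.06 with overlapping groups. GBF1, its exchange factor, read 1.18 to 1.21 against 1.27 to 1.37, a difference of 0.12 that missed the threshold (adjusted p = 0.0748, limma).

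Among the p24 proteins, which line the vesicles and select cargo such as GPI-anchored proteins, 2 of 4 fell and none rose. TMED10, which TMED2 needs as a partner, had 2 probes that fell together. The brighter read 3.80, 3.73 and 3.71 in shCtrl and 3.09, 3.21 and 3.30 in shXBP-1s, a difference of -0.55 (SE 0.06, adjusted p = 2.49e-04, limma). The dimmer read 2.36, 2.14 and 2.33 against 1.93, 1.80 and 1.66, a difference of -0.48 (SE 0.08, adjusted p = 0.00241, limma). No shXBP-1s array overlapped a shCtrl array on either probe, and about 68.3% and 71.7% of the control signal remained. TMED2 itself read 4.11, 4.07 and 4.01 against 3.95, 4.04 and 4.17, with full overlap (-0.0074, adjusted p = 0.941, limma). TMED3 fell by 0.18, a call lost under 10 of 18 other settings, and TMED9 (-0.18) did not pass.

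All 3 KDEL receptors rose. These receptors bind the KDEL signal of escaped ER chaperones in the Golgi and return them in COPI vesicles. KDELR1 read 0.75, 0.74 and 0.75 on the shCtrl arrays and 1.01, 1.01 and 1.05 on the shXBP-1s arrays, a rise of 0.28 (SE 0.04, adjusted p = 9.43e-04, limma), or 1.21-fold. KDELR2 read 3.70, 3.68 and 3.71 against 4.01, 4.05 and 4.19, a rise of 0.38 (SE 0.06, adjusted p = 0.00107, limma), or 1.3-fold. KDELR3, with its element shown above, read 1.21, 1.03 and 1.08 against 1.48, 1.61 and 1.66, a rise of 0.48 (SE 0.07, adjusted p = 7.92e-04, limma), or 1.39-fold. For all 3 the groups were apart, and the differences within the slide that holds both were 0.28, 0.38 and 0.37. All 3 passed in the same direction under each of the 18 other settings, with the lowest values at 0.26, 0.33 and 0.37. Not all of these settings could differ: with 1 probe a gene the mean of its probes repeats the main result. The other filters leave the difference itself unchanged. Each is measured by 1 probe, and cross-hybridisation within the family was not tested.

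Of the 4 receptors that carry cargo forward, 1 fell and 3 did not pass by their brightest probes, and their difference from the KDEL receptors was not tested. SURF4, a receptor for soluble secreted proteins, read 3.82, 3.85 and 3.87 in shCtrl and 3.48, 3.53 and 3.58 in shXBP-1s by its brighter probe, a difference of -0.32 (SE 0.05, adjusted p = 9.94e-04, limma). Its dimmer probe, with the same accession, gave 0.10 and did not pass, and under normexp the brighter probe gave -0.18 and did not pass either. LMAN1 and MCFD2 together form the receptor that exports clotting factors V and VIII. LMAN1 read -2.41 to -2.37 against -2.35 to -2.13, a difference of 0.15 that did not pass (adjusted p = 0.14, limma). MCFD2 gave -0.14 by its brighter probe (adjusted p = 0.0984, limma), but its dimmer probe fell from 0.91, 0.64 and 0.73 to 0.10, 0.02 and -0.01, a difference of -0.72 (SE 0.07, adjusted p = 1.41e-04, limma). LMAN2, a lectin related to LMAN1, differed by 0.12 without passing. For all 7 receptor genes the brightest probe had groups that did not overlap, beside 56.5% of all genes, and 4 of them passed.

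SNAREs of the route gave 2 falls and 1 rise among 5 genes. GOSR1, a Golgi SNARE, read 0.07, 0.20 and 0.18 on the shCtrl arrays and -0.33, -0.29 and -0.31 on the shXBP-1s arrays, a difference of -0.46 (SE 0.05, adjusted p = 2.12e-04, limma) to 72.8% of the control signal. STX5, the syntaxin that GOSR1 and GOSR2 pair with, fell by 0.22, from between -0.44 and -0.29 to between -0.63 and -0.50, and lost its call under 7 of 18 other settings. SEC22B, an ER-side SNARE, read 0.63, 0.63 and 0.62 against 0.77, 0.79 and 0.81, a rise of 0.16 (SE 0.04, adjusted p = 0.0133, limma). That rise was small but the arrays were far apart relative to their spread (SD 0.0076 and 0.0232), and its call was lost under 4 of 18 other settings. GOSR2 (-0.07) did not pass by its brighter probe and fell by 0.16 by the dimmer one. BET1 differed by 0.04 by its brighter probe, whereas the dimmer fell from -2.33, -2.39 and -2.22 to -2.95, -3.03 and -3.16, a difference of -0.73 (SE 0.08, adjusted p = 1.81e-04, limma).

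Among the tethers and Golgi membrane proteins 2 of 6 fell and none rose. GOLGB1, the long golgin known as giantin, fell by both of its probes. The brighter read -1.29, -1.35 and -1.23 in shCtrl and -1.80, -1.80 and -1.86 in shXBP-1s, a difference of -0.53 (SE 0.06, adjusted p = 1.59e-04, limma). By the dimmer probe it went from between -3.12 and -3.03 to between -4.12 and -3.77, a difference of -0.85 (SE 0.10, adjusted p = 2.95e-04, limma). YIPF5, a membrane protein of the YIP family, read 0.91, 0.58 and 0.94 against 0.27, 0.31 and 0.37 by its brighter probe (NM_030799), a difference of -0.49 (SE 0.09, adjusted p = 0.00402, limma). Its other probe (NM_001024947) gave 0.10 and did not pass. The tether USO1 (0.04), its Golgi partner GOLGA2 (0.10), the stacking protein GORASP2 (-0.02) and YIF1A (-0.02) had overlapping groups.

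**Figure D3:**
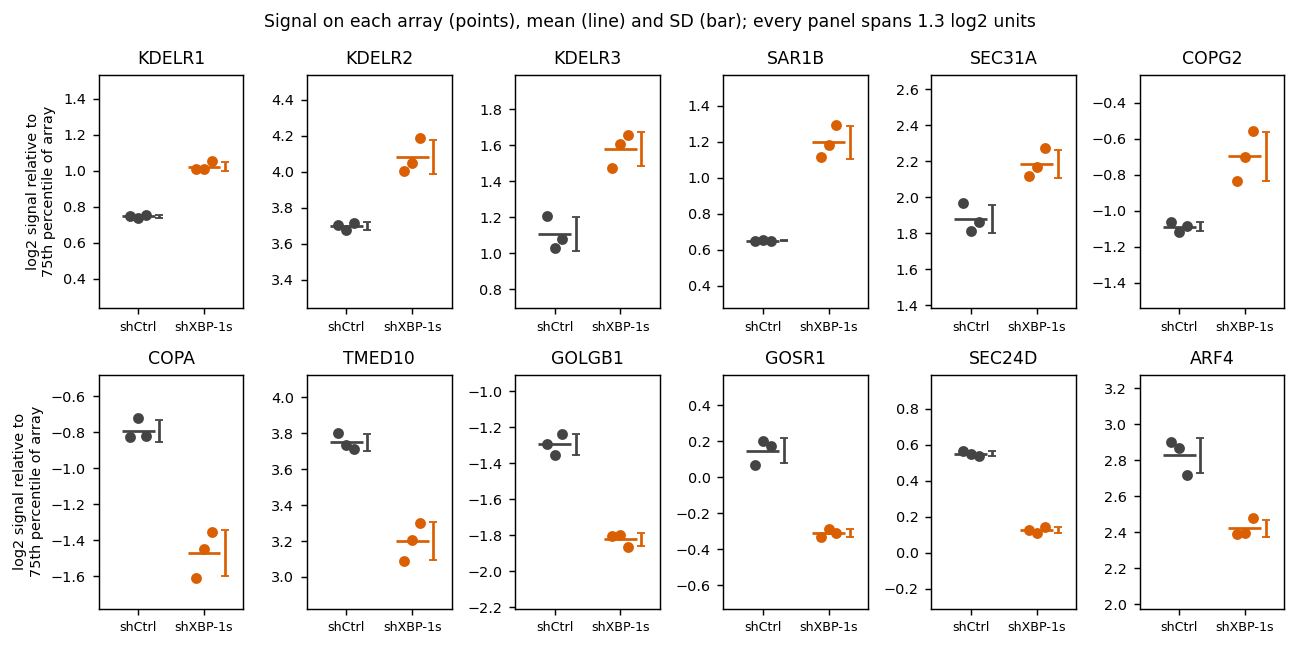
Each panel shows 1 gene on the 6 arrays, as log2 signal relative to the 75th percentile of the array (y axis), with points for arrays, a line for the mean and a bar for the SD of 3 arrays. In all 12 panels the shXBP-1s points lie wholly above (KDELR1, KDELR2, KDELR3, SAR1B, SEC31A, COPG2) or wholly below (COPA, TMED10, GOLGB1, GOSR1, SEC24D, ARF4) the shCtrl points.

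More than 1 probe was present for 15 genes. In 7 of them all probes had the same sign and in 8 they had both. GOLGB1 and TMED10 were the genes whose probes all fell. SEC24A was the gene with probes that passed in opposite directions, and SAR1A, MIA3, MCFD2, BET1, SURF4, GOSR2 and YIPF5 had 1 probe that passed beside others that did not. A dimmer probe was the one that passed in SAR1A, MIA3, MCFD2, BET1 and GOSR2. The sequences of the probes were not used here, so which part of each transcript they cover is not known.

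**Figure D4:**
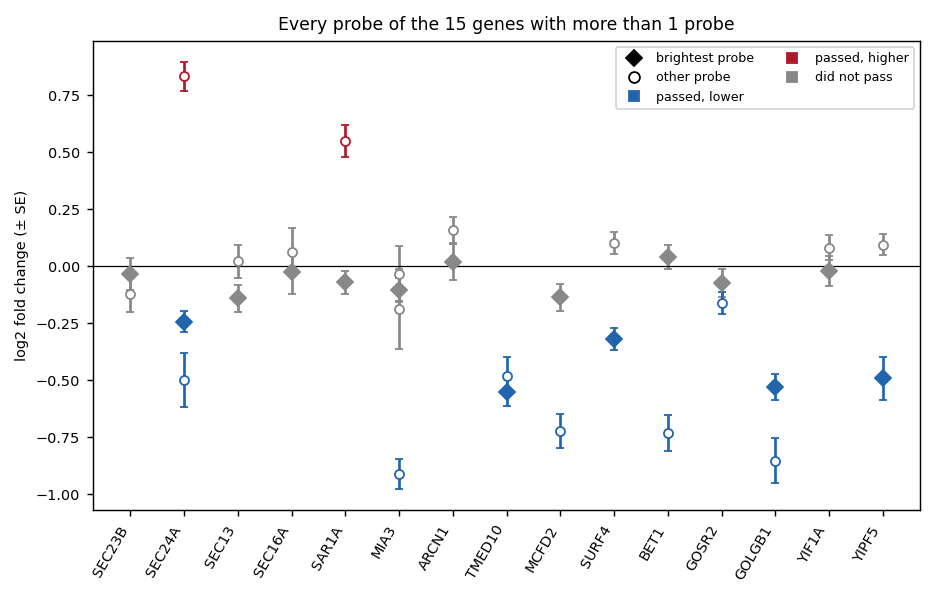
The plot gives the log2 fold change of shXBP-1s over shCtrl (y axis, with standard error bars) for every probe of the 15 genes with more than 1 probe (x axis), as a filled diamond for the brightest probe and an open circle for the others. Colour marks probes that fell (blue), rose (red) or did not pass (grey), and the probes of SEC24A span from -0.50 to 0.83.

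The change of 1 gene over its paralog on the same array does not depend on the constant by which an array is scaled. It was computed for 11 pairs, and in 7 the groups did not overlap, which is the smallest p that an exact 2-sided permutation test of 3 arrays against 3 can give (p = 0.1, before adjustment over the pairs). Among all genes taken singly, 56.5% had groups that did not overlap, and no such share was computed for other ratios. The pairs of KDEL receptors share genes, so the pairs are not independent. SAR1B over SAR1A, by brightest probes, increased by 0.62, with an SD of 0.07 in shCtrl and 0.09 in shXBP-1s. Against the dimmer probe of SAR1A, a choice made after the values were seen, it changed by -0.003 with overlapping groups, so this ratio depends on the probe. COPG2 over COPG1 increased by 0.37, with an SD of 0.04 in shCtrl and a wide 0.26 in shXBP-1s. SEC24D over SEC24C decreased by 0.35 (SD 0.12 in shCtrl and 0.04 in shXBP-1s). GOSR1 over GOSR2 decreased by 0.39 (SD 0.16 and 0.05) and ARF4 over ARF1 by 0.46 (SD 0.11 and 0.19). Within the KDEL receptors, KDELR3 over KDELR1 increased by 0.20 and KDELR2 over KDELR1 by 0.10, while KDELR3 over KDELR2 overlapped (0.09, exact permutation p = 0.3). The groups overlapped also for COPZ2 over COPZ1 (-0.34), SEC23B over SEC23A (0.04) and SEC24B over SEC24A (0.04). Against the other probes of SEC24A the last of these changed by -1.03 and 0.30, and GOSR1 over the dimmer probe of GOSR2 changed by -0.30.

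A list of 77 other genes of the same route gave 76 tested genes, of which 21 fell, 14 rose and 41 did not pass (27.6% lower and 18.4% higher), with a median of -0.0073. Those shares too were near the 27.5% and 18.9% of all genes. SEC31B, a paralog of the outer-cage subunit SEC31A, read -2.45, -2.23 and -2.30 in shCtrl and -3.42, -3.53 and -3.57 in shXBP-1s. It fell by 1.18 (SE 0.08, adjusted p = 2.03e-05, limma) and was the only 1 of the 76 past 2-fold. SEC31A itself rose, as given above. Of the 7 other COPII factors, 5 fell and 1 rose. The other ARF factors gave 3 falls and no rise among 6. TRAPP tether subunits gave 5 falls and 1 rise among 14, COG subunits 1 fall and 2 rises among 8, and the RAB GTPases of the route 1 fall and 3 rises among 6. Falls and rises numbered 1 and 3 among 12 other SNAREs and fusion factors, 3 and 3 among 12 other tethers, golgins and YIP proteins, and 2 and 1 among 11 other p24 and ERGIC proteins.

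Of the 23 members that passed, 10 did so in the same direction under all 18 other settings. They were KDELR1, KDELR2, KDELR3 and SAR1B among the rises, and COPA, TMED10, GOLGB1, GOSR1, SEC24D and ARF4 among the falls. With the slide as a block 13 of the 16 falls and 5 of the 7 rises still passed.

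**Figure D5:**
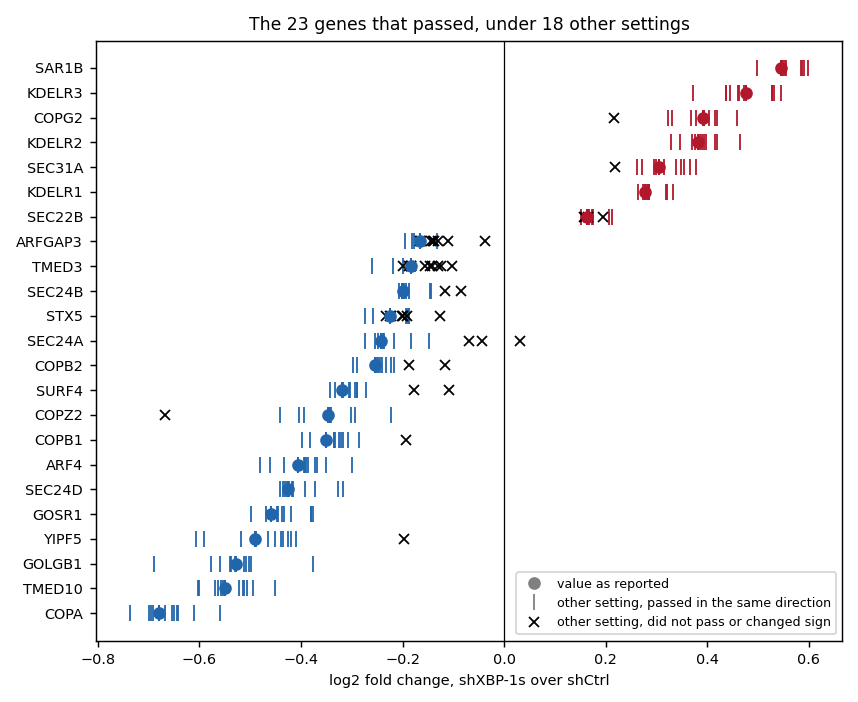
The plot shows the log2 fold change of shXBP-1s over shCtrl (x axis) of the 23 genes that passed (y axis), as a filled point for the value reported, ticks for other settings in which the gene passed in the same direction and crosses for those in which it did not. COPA, TMED10, GOLGB1, GOSR1, SEC24D, ARF4, SAR1B and the 3 KDEL receptors carry no cross, whereas TMED3 and ARFGAP3 carry 10 and 8.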

How the data were processed

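For each of the 6 arrays the authors deposited Agilent Feature Extraction (version 11.0.1.1) output, whose spot intensity is background-subtracted and detrended but not normalized between arrays. The authors also deposited a table of log2 values with equal quartiles on all arrays, for which the submitters' processing notes name RMA. It served only as an alternative. The labels describe a NimbleGen labelling procedure, whereas the files and the methods give an Agilent array.

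Outlier-flagged spots (230 to 377 per array) were dropped. From each log2 signal the 75th percentile over the non-control spots of that array was subtracted, and spots were averaged per probe. A probe was well above background on an array where over 50% of its spots were. Probes that met this on every array of at least 1 group, 27624 in number, entered limma 3.58.1 under R 4.3.3 (eBayes with trend, 2-sided, Benjamini-Hochberg). The test was first checked on simulated data, in which far fewer of the 27624 probes changed than the 11516 that passed in the real data. It recovered 41.8% of 67 true differences of 0.5 in size, 88.1% of 67 of size 1 and 93.9% of 66 of size 2. There were 14 false calls. With few changed probes the adjusted threshold is stricter, so these rates do not carry over to the real data. Small differences can still be missed, at a rate that was not measured. Accessions without version gave 25771 of 34127 probes a RefSeq symbol. The array annotation names another genome build than GRCh38.p14, so coordinates are given only for RefSeq promoters. The number of arrays limits the precision.

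The members, lists and alternatives were chosen with earlier results of these data known. All 50 members are named, and of the other route genes those past 2-fold. Alternatives were normexp on the median spot signal (offset 50, no mean signal column being present) with and without quantile normalization, quantile normalization alone, the deposited log2 values, other filters, limma without trend, the methods' t-test on the same values, a block for replicate number or for slide, each array left out, and the mean of a gene's probes. That mean was not itself tested. It took the largest adjusted p among the gene's probes, so its call is lost where any probe did not pass.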

Additional observations from a re-analysis of the deposited data

How the results depend on the processing

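The call of XBP1 and the median of the members were kept under all 18 alternatives, the latter between -0.0908 and -0.019. Normexp correction without quantile normalization moved most, with 4507 probes passing in place of 11516 and the median of all genes at -0.29. There 7 members fell in place of 16, and 11 of the other route genes in place of 21. With quantile normalization after normexp, 11185 probes passed. A block for slide, where shCtrl replicate 1 is the lone control, left 9 of the other route genes higher in place of 14. With the replicate number as a block (replicate block) the members gave 16 falls and 7 rises, as without it. Same-numbered arrays did not deviate together (correlations of -0.0158, 0.117 and -0.1161), so the numbers were not taken as pairs. The methods' t-test gave 16 falls and 8 rises of members at its unadjusted threshold, and 14 and 7 after Benjamini-Hochberg adjustment. With each array left out, between 13 and 17 members fell and 6 or 7 rose. No member that passed changed sign, except SEC24A by the mean of its probes (0.0308).

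Among members that did not pass, PREB (-0.20) and TMED9 (-0.18) differed as much as some that passed. Some passed under another setting, among them TFG under normexp (0.28) and PREB without shXBP-1s replicate 1 (-0.27). With quantile normalization after normexp TFG gave 0.25 and did not pass. SEC13 passed without shXBP-1s replicate 3 (-0.19) and MIA3 without shCtrl replicate 1 (-0.15). Several others lay near 0 and changed sign, which sets no direction for them. Under normexp SEC24C was 0.0524, SEC16A 0.0455, SAR1A 0.0704, COPG1 -0.0878, COPZ1 0.1661, TMED2 0.07, LMAN1 -0.1935, GOLGA2 -0.1589, GORASP2 0.092 and YIF1A 0.1085. With quantile normalization after it SEC16A was 0.0492, COPG1 -0.0078, COPZ1 0.124, GORASP2 0.0041 and YIF1A 0.0232. Under quantile normalization alone SEC16A was 0.0234, COPZ1 0.027, TMED2 0.0211, GORASP2 0.0387 and YIF1A 0.0234. On the deposited log2 values SEC23B was 0.0103, SEC16A 0.0339, COPZ1 0.0382, TMED2 0.0198, GORASP2 0.0449 and YIF1A 0.0444. With the slide as a block SEC24C was 0.0411, ARCN1 -0.0234, COPZ1 0.0997, ARF1 -0.0386, USO1 -0.0259 and YIF1A 0.0611. By the mean of a gene's probes SEC16A was 0.0194, SAR1A 0.2393, BET1 -0.3451 and YIF1A 0.0308. With each array left out the ranges were -0.0962 to 0.0257 for SEC23B, -0.1051 to 0.0595 for SEC16A, -0.0651 to 0.0915 for ARCN1, -0.1201 to 0.0412 for COPE, -0.0452 to 0.0748 for COPG1, -0.0661 to 0.0333 for COPZ1, -0.0106 to 0.1361 for ARF1, -0.0676 to 0.0431 for TMED2, -0.0051 to 0.0824 for USO1, -0.0369 to 0.0036 for GORASP2 and -0.0741 to 0.0328 for YIF1A. The cause of these shifts was not tested.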
